A study of Homo sapiens with 6 samples.

Results

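Stress-responsive hepatokines are proteins that liver cells secrete and whose transcripts are known to answer to nutrient, mitochondrial or endoplasmic reticulum stress. They were followed here as 6 genes, GDF15, FGF21, FGF19, STC2, IGFBP1 and ANGPTL4, each represented by 1 probe set of a whole-transcript array. The members were chosen by name, with earlier results of these data known, as 1 listed Ensembl transcript ID for each gene. All 6 IDs were found among the 65527 rows of the table. Any other rows of these genes could not be identified and were not used as members. Each of the 6 rows carries 1 transcript ID: ENST00000252809.3 for GDF15, ENST00000222157.4 for FGF21, ENST00000294312.3 for FGF19, ENST00000265087.8 for STC2, ENST00000275525.7 for IGFBP1 and ENST00000301455.6 for ANGPTL4.

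The RNA came from HepG2, a human liver tumour line that keeps many hepatocyte functions, grown in low-glucose medium with serum in both groups. The boric acid group held 3 arrays of cells exposed to 24 mM boric acid, a weak boron-containing acid, for 24 hours, a dose that the labels describe as the IC50. The control group held 3 arrays of untreated cells. Each group is numbered 1 to 3, and nothing in the labels says whether the numbered samples were separate cultures, so the spread that the p-values rest on is that among these samples and could be technical. The cell line was taken from the labels, because its markers could not be looked up: the rows carry no gene names and the gene table used here holds no Ensembl IDs.

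Several of these hormones are known as targets of the integrated stress response, in which the transcription factor ATF4 is translated while general protein synthesis slows. Once secreted they act in different ways. GDF15, FGF21 and FGF19 signal through cell-surface receptors, whereas IGFBP1, STC2 and ANGPTL4 bind or inhibit proteins outside the cell. Their transcripts are measured here, not the secreted proteins, and in bulk samples fewer expressing cells and less RNA per cell cannot be told apart.

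Of the 6 hepatokines, GDF15 alone passed the test, and it rose 2.16-fold in boric acid. IGFBP1 was high on all 3 boric acid arrays and on control array 1, and low on the other 2 control arrays, and its difference did not pass the test with all arrays. STC2 had a lower mean in boric acid, set largely by the same control array, and did not pass either. FGF21, FGF19 and ANGPTL4 gave dim signals that differed by 0.02 to 0.16 log2 units between the group means. A probe set was tested if 3 or more of the 6 arrays gave it a log2 signal above 6.89, the median of all values. GDF15 and IGFBP1 lay above this value on all 6 arrays, and STC2 on 4, the control arrays and boric acid array 1. GDF15, IGFBP1 and STC2 thus met the filter (3 of 6), and the others lay below it on every array. In limma's two-sided test with Benjamini-Hochberg adjustment over the 33710 probe sets that met it, 1 of these 3 was higher and 0 were lower at the 0.05 threshold on adjusted p, with IGFBP1 at an unadjusted p of 0.0528 and STC2 at 0.106. Over all tested probe sets, 42.2% passed the same threshold, 23.0% as higher and 19.2% as lower, so that 1 call among 3 is near the background.

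**Figure D1:**
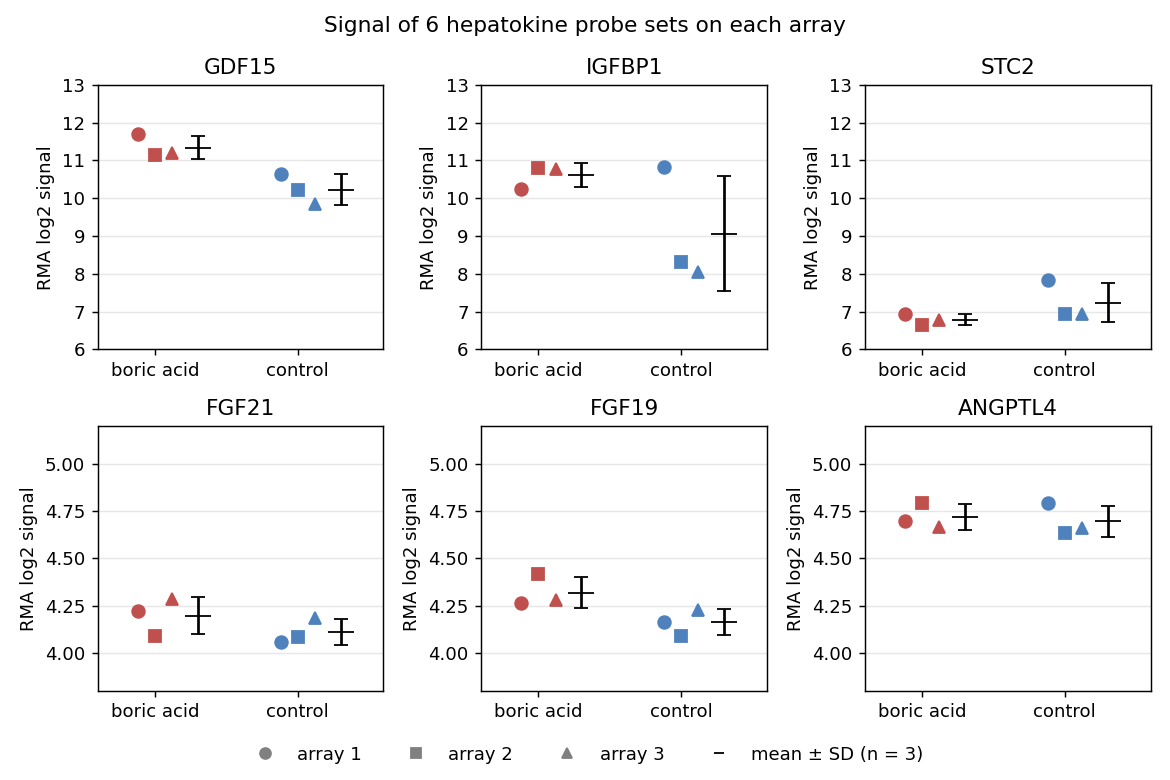
RMA log2 signal of each hepatokine probe set on the 3 boric acid arrays (red) and the 3 control arrays (blue), with the mean ± SD of each group in black; symbols mark the array number, and the upper and lower rows of panels have different vertical scales. GDF15 is higher on every boric acid array, control array 1 stands with the boric acid arrays for IGFBP1 and above all arrays for STC2, and the 3 probe sets in the lower row stay between 4.06 and 4.79.

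GDF15 is a stress-induced cytokine of the TGF-beta superfamily whose receptor GFRAL, in the hindbrain, lowers food intake. Its log2 signal was 11.70, 11.13 and 11.19 on boric acid arrays 1 to 3, against 10.64, 10.21 and 9.84 on control arrays 1 to 3. Every boric acid array lay above every control array, as the groups did not overlap for 56.4% of tested probe sets. The means were 11.34 ± 0.32 in the boric acid group and 10.23 ± 0.40 in the control group (SD, n = 3 each), a log2 difference of 1.11 with a standard error of 0.23. This is a 2.16-fold increase with a 95% interval of 1.48 to 3.15 (limma, adjusted p = 0.00833). Within the arrays of one number the log2 difference was 1.06, 0.92 and 1.35 for numbers 1, 2 and 3. The increase was past the threshold with any 1 array left out, at log2 differences of 0.91 to 1.32.

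The GDF15 signal was bright in both conditions. It exceeded 97.4% to 98.7% of the rows of its array in boric acid cells and 90.8% to 95.8% in control cells. Among the tested probe sets, 737 (2.19%) had a larger increase than GDF15. A position within an array depends on how well the probes bind as well as on transcript amount, so it is given only for the probe set itself across arrays.

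The 2 probe sets whose profile was most like that of GDF15 were ENST00000474026.5 and ENST00000463997.1, for which the files give no gene. Likeness was Pearson's r over the 6 arrays among tested probe sets, and both had an r of 0.998. Because the arrays form 2 groups, an r of this kind mostly reflects a shared group difference, and 1557 tested probe sets had an r above 0.95 with GDF15. ENST00000474026.5 measured 10.63, 9.66 and 9.72 in boric acid, against 8.97, 8.25 and 7.81 in control cells, a 3.16-fold increase (limma, adjusted p = 0.00854). ENST00000463997.1 rose 2.54-fold (limma, adjusted p = 0.010). In both, as for GDF15, boric acid array 1 was the highest of its group and control array 3 the lowest of its group. Both were picked for their likeness to GDF15 on these same arrays. Their increase and array order thus follow from that choice and are no separate evidence.

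IGFBP1 binds insulin-like growth factors in plasma, and its hepatic transcription is known to be held down by insulin and raised by fasting and stress. Its log2 signal was 10.25, 10.81 and 10.78 on boric acid arrays 1 to 3, against 10.83, 8.32 and 8.05 on control arrays 1 to 3. Control array 1 was the highest of all 6 arrays, and the other 2 control arrays lay below every boric acid array, the nearer of them by 1.93 log2 units. IGFBP1 averaged 10.61 ± 0.32 in the boric acid group and 9.07 ± 1.53 in the control group (SD, n = 3 each). The log2 difference of 1.55 had a standard error of 0.67 and a 95% interval of -0.02 to 3.12, and it did not pass the threshold (limma, adjusted p = 0.101).

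The outcome for IGFBP1 turned on control array 1. Without that array the log2 difference was 2.43, a 5.38-fold increase with a 95% interval of 3.83 to 7.56, and it passed the threshold (limma, adjusted p = 0.00186). The higher calls among the 3 tested hepatokines then numbered 2, while 19.6% of all tested probe sets were called higher. Leaving out any other single array gave log2 differences of 1.04 to 1.73, all short of the threshold. Within number pairs, boric acid minus control was -0.58 for number 1, 2.50 for number 2 and 2.73 for number 3. The labels give no reason to leave out control array 1, so the value with all arrays is the result, and what set that array apart was not tested.

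**Figure D2:**
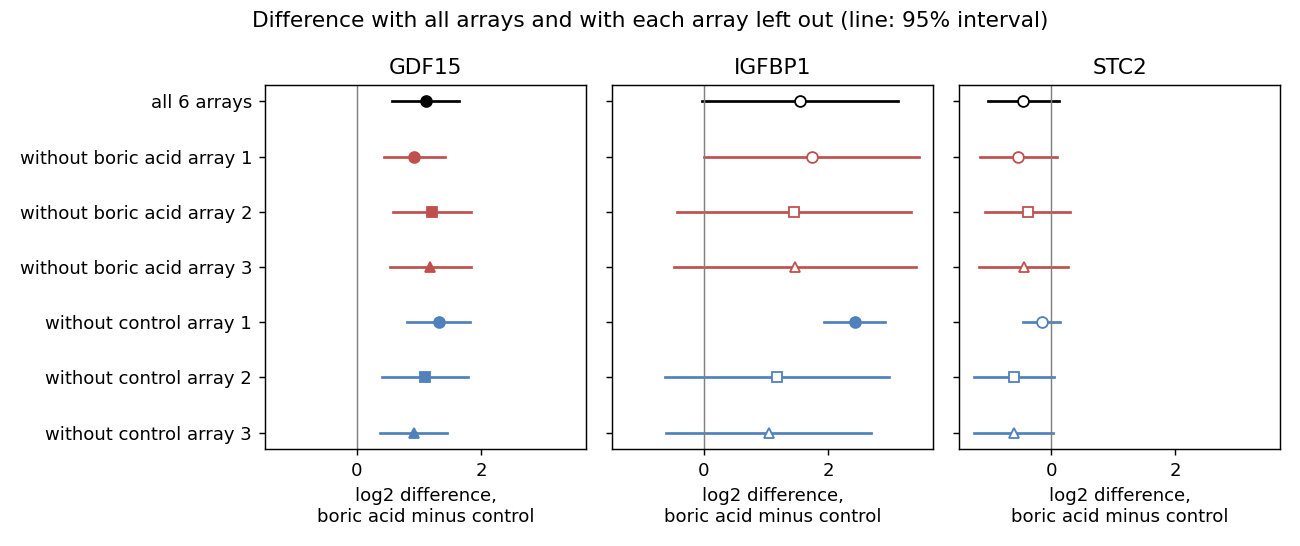
Log2 difference (boric acid minus control, horizontal axis) of GDF15, IGFBP1 and STC2 with all 6 arrays and with each array left out, with 95% intervals as lines; filled symbols passed the 0.05 threshold on limma's adjusted p. GDF15 stays between 0.91 and 1.32, whereas IGFBP1 moves to 2.43 and STC2 to -0.15 without control array 1.

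The spread of IGFBP1 among untreated cells was among the widest on the arrays. Control array 1 exceeded the mean of control arrays 2 and 3 by 2.64 log2 units, which is 6.24-fold. Over all tested probe sets the median of that difference was 0.003, and 73.8% lay within 0.25 of 0. Only 4 tested probe sets had an excess at least as large (0.0119%), and IGFBP1 was 1 of them. Another was ENST00000457280.5, whose 6 values were identical to those of IGFBP1. The remaining 2 were ENST00000468955.1 and ENST00000327268.8, named here after their values were seen, with an excess of 2.67 and 2.66. ENST00000468955.1 followed IGFBP1 closely, at 10.59, 11.17 and 11.16 in boric acid, against 11.20, 8.66 and 8.40 in control cells. The files pair none of these 3 IDs with a gene, and transcripts of one gene can share probes. Boric acid array 1 did not share the excess: its IGFBP1 signal differed by -0.55 log2 units from the mean of boric acid arrays 2 and 3.

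STC2, stanniocalcin 2, is a secreted glycoprotein that inhibits the protease PAPP-A, which frees insulin-like growth factors from their binding proteins, and its transcript is known to be induced by endoplasmic reticulum stress. Its log2 signal was 6.95, 6.65 and 6.77 on boric acid arrays 1 to 3, against 7.84, 6.95 and 6.93 on control arrays 1 to 3. The groups overlapped narrowly, since boric acid array 1 (6.948) lay just above control arrays 2 (6.947) and 3 (6.930). Control array 1 stood above the rest. The means were 6.79 ± 0.15 in the boric acid group and 7.24 ± 0.52 in the control group (SD, n = 3 each). The log2 difference was -0.45 with a standard error of 0.24 and a 95% interval of -1.02 to 0.12, and it did not pass (limma, adjusted p = 0.176). Within number pairs, boric acid minus control was -0.89, -0.30 and -0.16 for numbers 1, 2 and 3, lower in boric acid each time. With the replicate number as a block the 95% interval was -0.84 to -0.06 and the difference still missed the threshold (limma, adjusted p = 0.0596). Without control array 1 it was -0.15, with an interval of -0.44 to 0.15 (limma, adjusted p = 0.372). The excess of control array 1 over the other control arrays was 0.90 log2 units, reached by 143 tested probe sets (0.424%).

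Control array 1 was the highest control array for all 3 tested hepatokines, as it was for 37.5% of tested probe sets. Its excess over the mean of the other control arrays was 0.62 log2 units for GDF15, reached by 483 tested probe sets (1.43%). The GDF15 increase was therefore larger without that array, at 2.49-fold. For GDF15 the boric acid mean was still 0.70 log2 units above control array 1, whereas boric acid mean minus control array 1 was -0.21 for IGFBP1 and -1.05 for STC2.

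**Figure D3:**
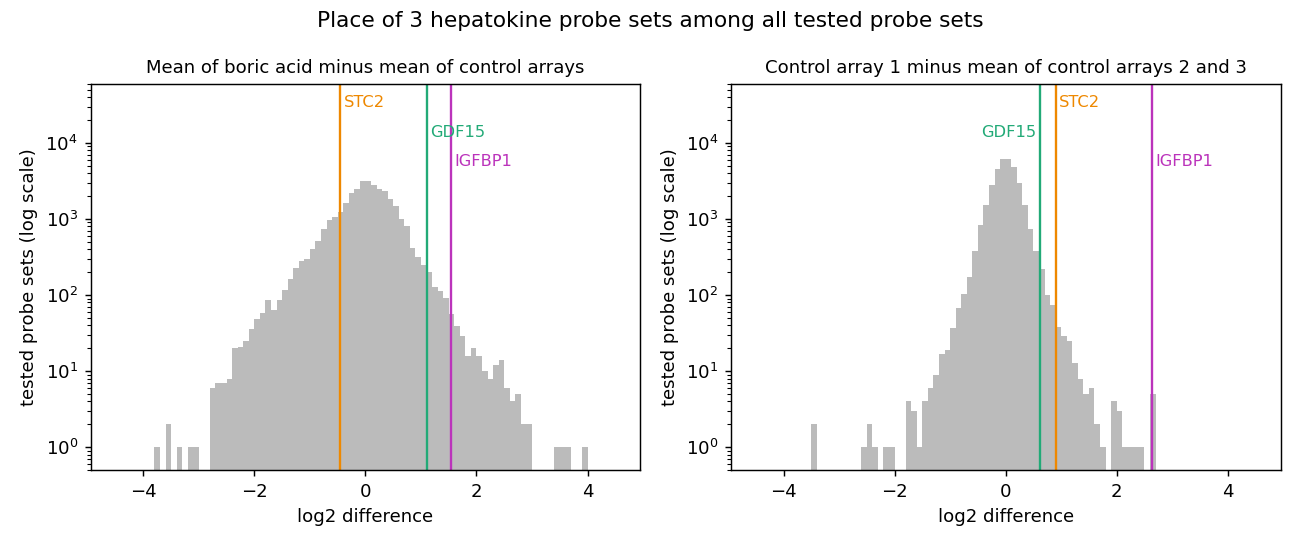
Number of tested probe sets (log scale) by the log2 difference between group means (left, boric acid minus control) and by the log2 difference between control array 1 and the mean of control arrays 2 and 3 (right), in bins of 0.1, with 3 hepatokines as vertical lines. IGFBP1 lies at 2.64 on the right, in the last filled bin, and GDF15 at 1.11 on the left, exceeded by 2.19% of tested probe sets.

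FGF21, FGF19 and ANGPTL4 lay far below the signal filter. The lower quartile of an array was 4.65 to 4.69, and FGF21 and FGF19 were below it on every array. Background was not measured in the values used here, so these signals cannot be told apart from no transcript, and small differences near the floor may be compressed. They were compared only in a fit of all 65527 rows, in which 24.1% of rows passed the threshold.

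FGF21 is an endocrine fibroblast growth factor that acts through the co-receptor KLB and is known to be secreted by the liver in fasting and stress. Its log2 signal was 4.22, 4.09 and 4.28 in boric acid, against 4.06, 4.08 and 4.19 in control cells. The groups overlapped, and the difference of 0.09 did not pass the test (limma, all rows, adjusted p = 0.560). Its 95% interval of -0.12 to 0.30 corresponds to 0.918-fold to 1.23-fold on the measured scale.

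FGF19, the related hormone that the ileum secretes in answer to bile acids and that represses bile acid synthesis, is also made by some liver tumours. Its log2 signal was 4.26, 4.42 and 4.28 in boric acid, against 4.17, 4.09 and 4.23 in control cells. The boric acid arrays all lay above the control arrays, by as little as 0.03, and the groups did not overlap for 23.6% of the probe sets below the filter. The difference of 0.16 had a 95% interval of -0.05 to 0.36 and did not pass (limma, all rows, adjusted p = 0.255).

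ANGPTL4 inhibits lipoprotein lipase and is known as a target of PPAR nuclear receptors and of hypoxia. Its log2 signal was 4.70, 4.79 and 4.67 in boric acid, against 4.79, 4.63 and 4.66 in control cells. The groups overlapped through control array 1. Control arrays 2 and 3 lay below every boric acid array, but control array 3 was only 0.002 below boric acid array 3. The difference was 0.02, with a 95% interval of -0.18 to 0.23 (limma, all rows, adjusted p = 0.891). Without control array 1, a choice made after seeing the data, the difference was 0.07. Its interval was then -0.16 to 0.30 (limma, all rows, adjusted p = 0.680).

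Promoter sequence was available for 4 of the 6 genes (GDF15, FGF21, STC2 and ANGPTL4) from RefSeq on GRCh38.p14, as 250 bases before and 50 bases after the gene start. Those of GDF15, the hepatokine that rose, and of FGF21, a dim one with a match to a stress-pathway motif, are shown up to the gene start. They run 5′ to 3′ on the gene's strand, with motif matches in capitals. The GDF15 window is chr19:18385908-18386157 on the plus strand, and the FGF21 window is chr19:48755274-48755523 on the plus strand.
GDF15: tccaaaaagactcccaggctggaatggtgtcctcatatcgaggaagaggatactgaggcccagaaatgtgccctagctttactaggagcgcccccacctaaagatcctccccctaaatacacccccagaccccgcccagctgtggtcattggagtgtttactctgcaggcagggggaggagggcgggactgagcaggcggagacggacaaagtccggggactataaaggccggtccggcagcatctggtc
FGF21: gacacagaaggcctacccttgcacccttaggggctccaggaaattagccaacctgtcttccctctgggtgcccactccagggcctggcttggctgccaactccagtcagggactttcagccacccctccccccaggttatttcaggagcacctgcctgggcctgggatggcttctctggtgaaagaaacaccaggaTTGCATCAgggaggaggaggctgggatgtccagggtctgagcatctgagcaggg

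Motifs were searched on both strands of these windows. The C/EBP-ATF response element, searched as TGATGNAA, is bound by ATF4 with C/EBP family partners. It was found in FGF21 alone among the 4, as TTGCATCA from 54 to 47 bases before the gene start, and in 3.62% of the 35116 promoters of the table. The core of the hypoxia response element, ACGTG, was found in ANGPTL4 alone among the 4, on the opposite strand from 234 to 230 bases before the start, and in 21.4% of all promoters. The AP-1 motif TGANTCA (7.71% of all promoters), the FOXO motif CAAAACA (4.92%), the endoplasmic reticulum stress element (0.0769%), the PPAR direct repeat DR1 (0.0228%) and the FXR inverted repeat IR1 (0 of 35116) had no match in these 4 windows. None of the 7 motifs lay in the GDF15 and STC2 windows. A match or its absence here describes these letters only, and the search does not reach elements farther from the gene start.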

How the data were processed

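The authors deposited 1 table of log2 signals, made with RMA, a method that corrects background, equalises array distributions by quantiles and merges probes, per the submitters' processing notes, without a version; that they are log2 was read from the values. A change shared by the whole distribution would be lost in this step, so differences are relative to the array. The origin of the probe sets is not given in the sources used here, nor is the genome build. Array medians were 6.84 to 6.92, and the number of arrays limits the precision.

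Rows were compared with limma 3.58.1 (lmFit, eBayes; R 4.3.3), with 4 residual and 3.34 prior degrees of freedom, after a filter at the table's median. The fit was tested on simulated data. The members and lists were chosen with earlier results of these data known. The 6 members are always named, with rows identical to one and the 2 probe sets most like GDF15. Lists of stress-response genes, receptors and cell type markers could not be looked up without gene names, and no protein sequence was used here.

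Deviations from group means correlated by 0.477, 0.174 and 0.195 between arrays of the same number, above the limit of 0.1 in each case, which met the rule for pairs. The labels do not state any pairing. The reported tests have no pairing term, and the fit with the replicate number as a block is an alternative. Higher correlations than for the own number were found between boric acid 2 and control 3 (0.376) and between boric acid 3 and control 2 (0.211).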

Additional observations from a re-analysis of the deposited data

How the results depend on the processing

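GDF15 passed the threshold in every limma setting run, at log2 differences of 0.91 to 1.32. An exact two-sided permutation of its 6 arrays alone (log2 difference 1.11) gave p = 0.1, the smallest that 3 against 3 allows. IGFBP1 passed with array weights (2.05, adjusted p = 0.0104) and without control array 1 (2.43, also with no filter). It passed too without both arrays numbered 1 (2.61, adjusted p = 2.1e-04), a choice made after seeing the data, as were the unfiltered fits without control array 1 and with the block. Leaving out 1 array at a time gave 1.04 to 2.43. The hepatokines called higher numbered 2, not 1, in those settings, and otherwise 1. STC2 kept its sign and missed the threshold in every limma setting that tested it, at -0.60 to -0.15 with 1 array left out. The filter at the 75th percentile left STC2 out, and with it 4579 of all tested probe sets were higher and 3615 lower, since 17458 were tested. With the replicate block the adjusted p was 0.00152 for GDF15, 0.0943 for IGFBP1 and 0.0596 for STC2, and no call of a hepatokine changed, in the unfiltered fit too. The 3 dim members moved by less than the spread between replicates in the settings that tested them. Of the 31817 probe sets below the filter, 10.0% passed when all rows were tested, and the median standard error of their log2 differences was 0.11. Background was not measured in the values used here, so absent and unchanged transcripts cannot be told apart there.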
